A study of Mus musculus with 18 samples.

Results

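Keratins are the intermediate filament proteins of epithelial cells, and their transcripts were followed here in the developing mouse liver, in adult liver and in the rest of the embryo. The members were all probe sets of the array whose annotation gives a single gene symbol made of Krt and a number. This gave 55 probe sets for 44 keratin genes, of 45101 probe sets and 18193 named genes in all. RNA was taken from adult liver of 10-week-old female CD-1 mice (2 arrays), from embryonic liver daily between 10.5 and 14.5 days post conception (dpc) and once more at 16.5 dpc (2 arrays each), and from what remained of the embryo after liver removal on those days up to 14.5 dpc except 13.5 dpc (1 array each). All animals were of the outbred CD-1 stock, the labels name no engineered allele or agent, and every embryonic sample pooled at least 5 embryos. The adult samples are named as baseline normal liver, although their treatment text describes a liver resection. The labels call replicates biological and tell nothing about litters, so that a p-value speaks only of how far these samples scatter. No stage of the rest of the embryo has a replicate, so a slope over its stages is judged by departures from a straight line.

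Keratin filaments are built from pairs of a type I and a type II chain, and each epithelium uses its own pairs. Simple, single-layered epithelia such as hepatocytes and gut lining use Krt8 with Krt18, and bile duct cells add Krt7 and Krt19. In the skin, basal cells of the epidermis use Krt5 with Krt14 and Krt15, and cells that move up to the suprabasal layers switch to Krt1 with Krt10, while hair follicles and the oral, oesophageal and corneal linings have keratins of their own. In mouse the type I genes form a cluster on chromosome 11, and the type II genes and Krt18 lie on chromosome 15. Of the 44 genes measured, 22 were on chromosome 11 and 22 on chromosome 15 in the GRCm38.p6 annotation. They were sorted into working groups, for most genes by known site of use. The groups were simple epithelial keratins (Krt7, Krt8, Krt18 and Krt19, 6 probe sets), other simple-type keratins (4 genes), basal epidermal (3 genes), suprabasal epidermal (4 genes), periderm, appendage and stress (4 genes), mucosal and corneal (6 genes), hair and inner root sheath keratins (17 genes), and 2 genes in no group. The label other simple-type, for Krt20, Krt23, Krt42 and Krt80, is a working name and not the known site of use of each.

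Values of the 14 liver arrays differ in form from those of the other 4. Negative values numbered 1216 to 1535 on a liver array, with no exact 0, while rest-of-embryo arrays had no negative value and 35 to 41 exact 0 values. The array medians were 69.7 to 79.5 on liver arrays and 91.9 to 107 on rest-of-embryo arrays, and the 99th percentiles were 1325 to 2935 and 5553 to 5953. The adult replicate 1 had the lowest 99th percentile, 1325. How the arrays were scaled can therefore not be told apart from tissue in any comparison of levels between them. Heart muscle markers also moved between liver stages. The summed intensity of 12 such genes was 15479 and 26147 on the 10.5 dpc liver arrays and 4018 and 12259 at 12.5 dpc, but 532 to 1395 on the other embryonic liver arrays and 383 and 463 in adult liver.

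Before the log2 was taken, any intensity under 24.8 was set to that floor, which is where the lowest 20% of the values end. Among keratins, 1 probe set lay at or under the floor on all 18 arrays, the second probe set of Krt222, at 16.6 at most. That is 1.82% of the keratin probe sets, against 2.50% of all probe sets on the array. On the 14 liver arrays 3 were at the floor throughout, those of Krt25, Krt82 and Krt222, which is 5.45% of the keratin probe sets and 5.72% of all probe sets. On the 4 rest-of-embryo arrays 6 were at the floor throughout, those of Krt2, Krt26, Krt35, Krt73, Krt222 and the second probe set of Krt12, which is 10.9% of the keratin probe sets and 10.5% of all. None of the simple epithelial probe sets reached the floor on any array. In all, 24 of the 55 stood above the floor on every array, and 20 never exceeded 78.0, the median of all values, on more than 1 array. With a floor at the 40th percentile, 9, 15 and 18 probe sets lay at it on all arrays, on every liver array and on every rest-of-embryo array, and with a floor at the 10th percentile there were 0 in each case.

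**Figure D1:**
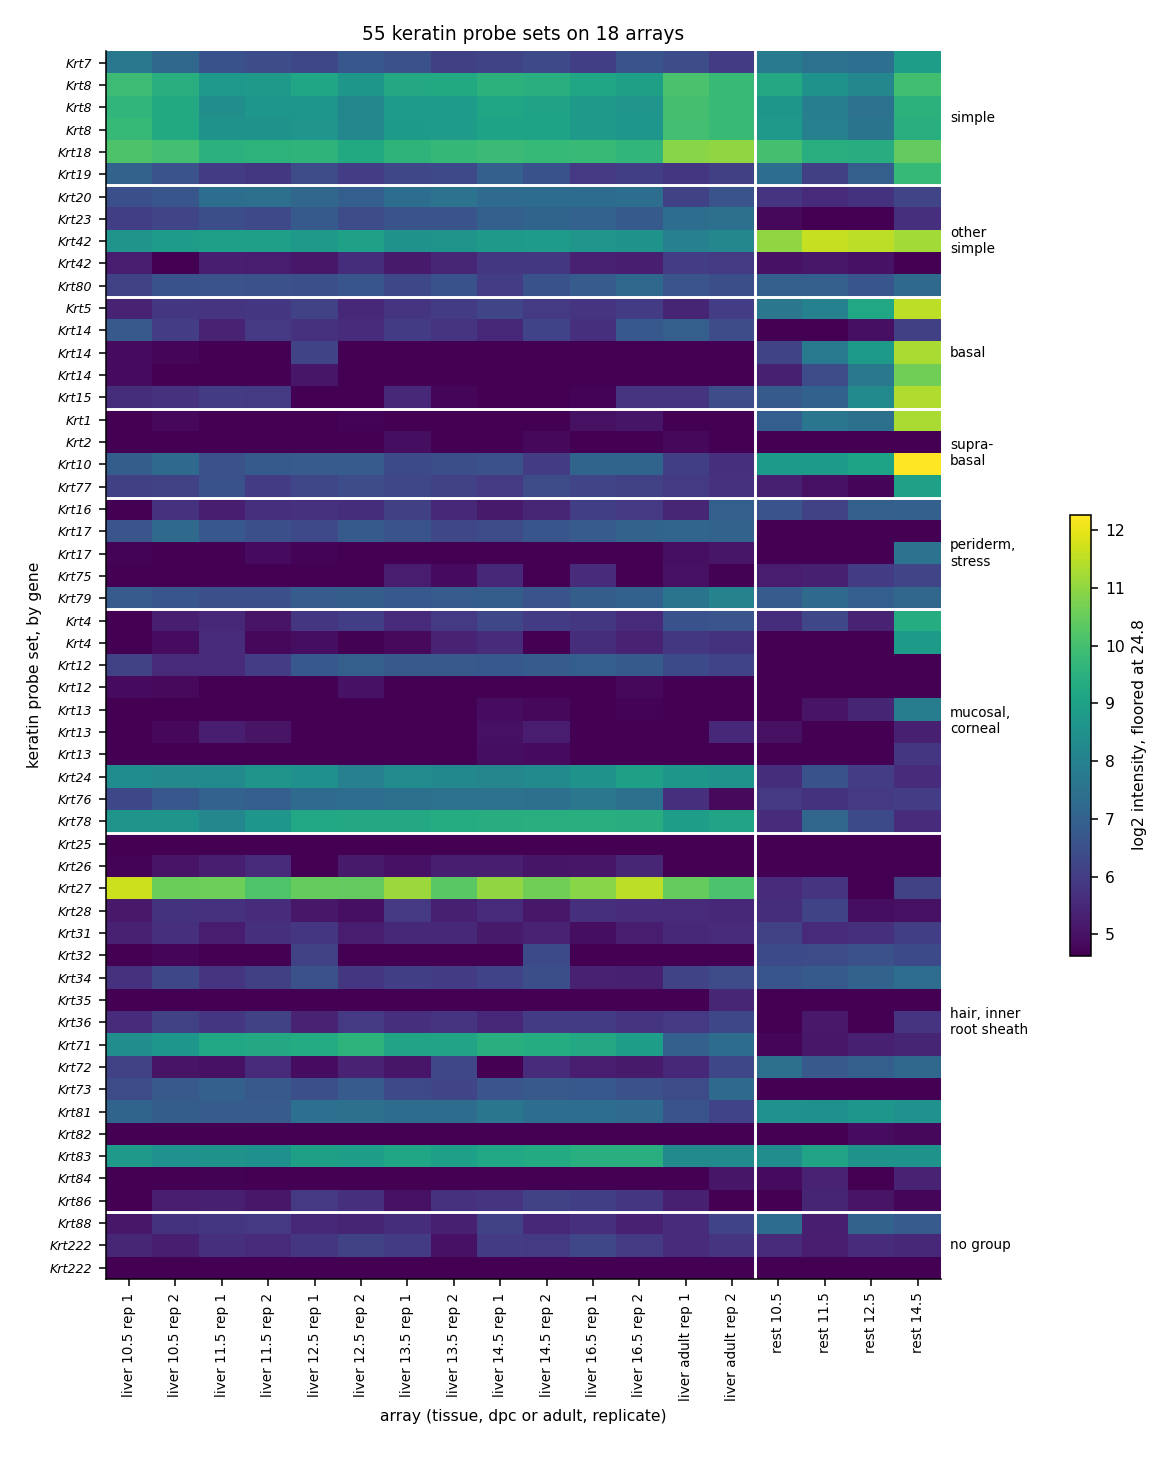
Log2 intensity, floored at 24.8, of the 55 keratin probe sets (rows, by group) on the 14 liver arrays (left) and the 4 rest-of-embryo arrays (right). The Krt8 and Krt18 rows are bright on all 18 arrays, the rows of Krt5, Krt15, Krt1, Krt10 and Krt77 and of 2 Krt14 probe sets brighten in the last column, the 14.5 dpc rest of the embryo, while Krt2 stays at the floor there, and the rows of Krt27, Krt71, Krt78 and Krt24 are bright in liver columns only.

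Krt8 and Krt18, the keratin pair of the hepatocyte, were read well above the floor at every liver stage. Krt18 had intensities of 1118 and 1019 in 10.5-dpc livers, 723 and 758 in 11.5-dpc livers, 777 and 614 in 12.5-dpc livers, 775 and 837 in 13.5-dpc livers, 916 and 861 in 14.5-dpc livers, 877 and 811 in 16.5-dpc livers, and 1922 and 2068 in adult livers. Both adult arrays lay above all 12 embryonic arrays, and the 10.5 dpc arrays above the other embryonic ones. Krt8 read 932 and 679.7 in 10.5-dpc livers, 415 and 430.0 in 11.5-dpc livers, 565 and 412 in 12.5-dpc livers, 599.8 and 623 in 13.5-dpc livers, 749 and 687 in 14.5-dpc livers, 568 and 502 in 16.5-dpc livers, and 1089 and 905 in adult livers. Its lowest arrays were those of 11.5 dpc and 1 of 12.5 dpc, and 1 array of 10.5 dpc overlapped the range of the adult pair. The other 2 Krt8 probe sets had the same shape, with 284 to 811 and 289 to 863 on embryonic arrays and 879 to 1031 and 882 to 1017 on adult ones.

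Krt7 and Krt19, keratins of bile ducts and of many glandular linings, did not exceed 208 and 134.5 on any liver array. Krt7 read 208 and 146 in 10.5-dpc livers, 95.0 and 86.7 in 11.5-dpc livers, 78.6 and 104 in 12.5-dpc livers, 92.3 and 67.8 in 13.5-dpc livers, 74.0 and 80.1 in 14.5-dpc livers, 66.8 and 98.5 in 16.5-dpc livers, and 85.8 and 63.8 in adult livers. The 2 arrays of 10.5 dpc stood above all others, which overlapped each other. Krt19 read 134.5 and 96.9 in 10.5-dpc livers, 63.9 and 58.2 in 11.5-dpc livers, 84.4 and 64.9 in 12.5-dpc livers, 76.8 and 79.8 in 13.5-dpc livers, 126 and 94.4 in 14.5-dpc livers, 59.7 and 66.2 in 16.5-dpc livers, and 57.6 and 67.1 in adult livers. It was highest at 10.5 and 14.5 dpc, whose arrays overlapped, and of the adult values 1 lay within the embryonic range and 1, 57.6, just under its lowest value of 58.2. In bulk tissue such as this, fewer cells of a type and less RNA per cell cannot be told apart.

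**Figure D2:**
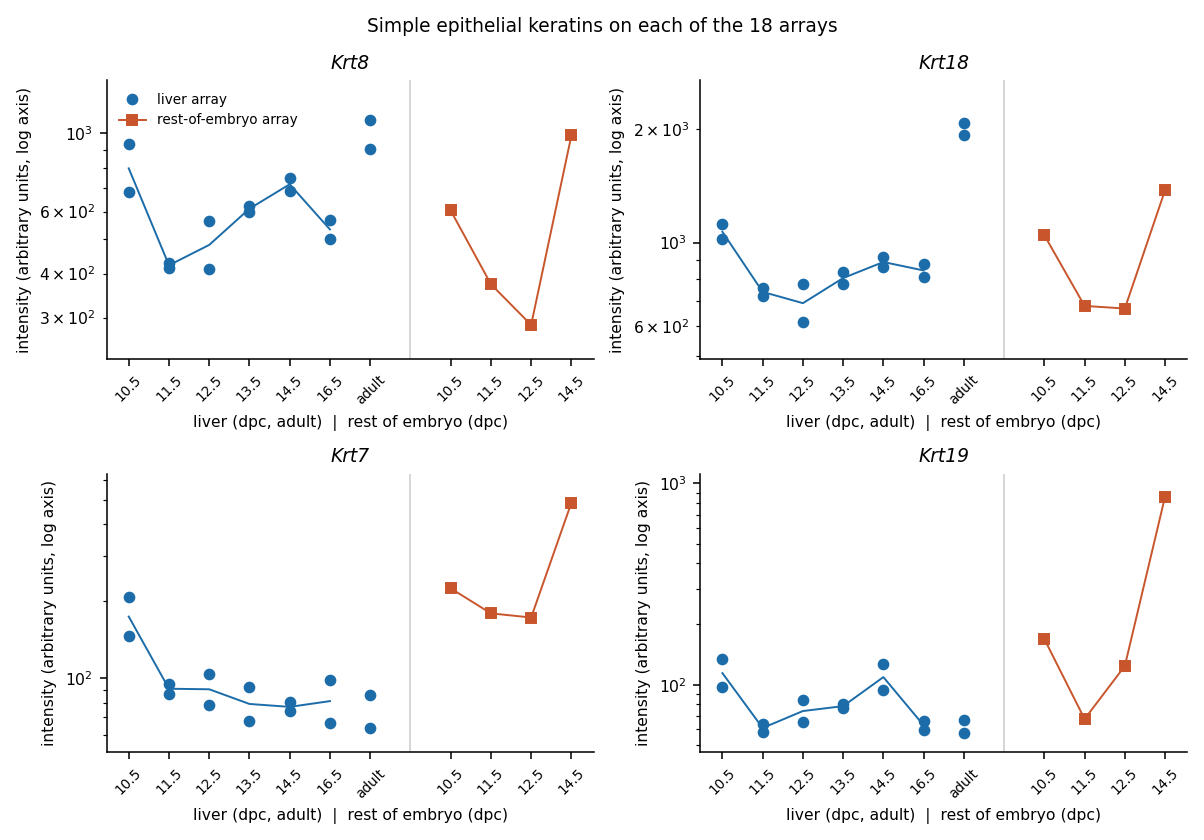
Intensity (arbitrary units, log axis) of Krt8, Krt18, Krt7 and Krt19 on each array, 1 panel a gene, with liver arrays as circles (line through the geometric mean of the embryonic stages) left of the rest-of-embryo arrays as squares. Krt18 reached 1922 and 2068 in adult liver, above the 614 to 1118 of embryonic liver, and Krt7 stood at 208 and 146 at 10.5 dpc.

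Between 16.5 and 10.5 dpc, the contrast that spans the embryonic series, 3 of 24 keratin genes tested were called, at an adjusted p under 0.05 (limma, Benjamini-Hochberg over all 14125 genes tested) and a difference of at least 1 log2. Of these 2 were higher at 16.5 dpc and 1 was lower, while 10.4% of all genes tested were called higher and 6.98% lower, so the share of keratins called was not above the background. The median keratin difference was 0.16 log2, against 0.05 for all genes, and 15 of the 24 had an unadjusted p under 0.05. Krt7 fell by 1.10 log2 at 16.5 dpc (2.15-fold, SE 0.27, limma adjusted p = 0.00781). Among the other simple epithelial keratins, the difference was -0.86 log2 for Krt19 (SE 0.22), -0.58 for Krt8 (SE 0.18) and -0.34 for Krt18 (SE 0.13), none of which was called. Krt12, a keratin of the corneal epithelium, rose by 1.01 log2 (SE 0.22, limma adjusted p = 0.00445), with intensities of 122 and 111 at 16.5 dpc against 70.5 and 47.4 at 10.5 dpc. Its second probe set, near the floor, read 12.6 and 27.6 at 16.5 dpc against 28.9 and 28.5 at 10.5 dpc and did not follow it. Krt76, a keratin of the hard palate and other oral lining, rose by 1.07 log2 (SE 0.25, limma adjusted p = 0.00639), with 203 and 177 at 16.5 dpc against 78.1 and 105 at 10.5 dpc. The groups did not overlap for any of these 3 genes, which a call with 2 arrays a group makes likely. The share of all genes without overlap was not computed. None of the 3 exceeded 208 on any embryonic liver array.

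The call on Krt7 was lost when some arrays were left out. Without the 10.5 dpc replicate 1 its difference was -0.85 (limma adjusted p = 0.0626), without the 16.5 dpc replicate 1 it was -0.82 (limma adjusted p = 0.0773), and with 11.5 dpc as the early stage, omitting the arrays of 10.5 and 12.5 dpc, it was -0.16 (limma adjusted p = 0.664). Krt76 and Krt12 were no longer called when arrays were centred on their medians, at 0.95 and 0.89 log2, or quantile normalized, at 0.94 and 0.88 log2, so that 0 keratins were called higher and 1 lower. Krt76 was also not called without the 10.5 dpc replicate 1 (0.86 log2) or the 16.5 dpc replicate 1 (0.97 log2), and Krt12 not without the 10.5 dpc replicate 2 (0.72 log2) or the 16.5 dpc replicate 1 (0.94 log2). Marker lists of other cell types moved between these stages as well, in both directions. Red cell markers (9 genes) summed to 24073 and 24478 at 16.5 dpc against 2165 and 2506 at 10.5 dpc, with 8 of 9 called higher, and hepatocyte markers (8 genes) to 39036 and 39376 against 12042 and 12047, with 7 of 8 called higher. Mesothelial markers (11 genes) summed to 1315 to 1893 at the later embryonic stages against 2625 and 3470 at 10.5 dpc, and foregut and pancreas markers (13 genes) to 1252 to 1732 against 2059 and 2236, beside the heart muscle sums given above. The 10.5 dpc replicate 1 also had a Gapdh 3′ to 5′ ratio, a sign of RNA integrity, of 2.82, against 0.744 to 0.886 on the other liver arrays. The part of these in the results for Krt7, Krt12 and Krt76 was not tested.

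Of the steps between neighbouring embryonic liver stages, the first had the largest difference for each of the 4 simple epithelial keratins. At 11.5 dpc against 10.5 dpc, the difference was -0.91 log2 for Krt8 (SE 0.18), -0.94 for Krt7 (SE 0.27), -0.90 for Krt19 (SE 0.22) and -0.53 for Krt18 (SE 0.13), each with an adjusted p under 0.05 and each short of the 1 log2 required. In this step 2.97% of all genes were called higher and 2.69% lower. Krt12 was called at 12.5 against 11.5 dpc, where it rose by 1.07 log2 (SE 0.22, limma adjusted p = 0.0174), with 107 and 124 at 12.5 dpc against 46.4 and 65.2 at 11.5 dpc, in a step that called 2.68% of all genes higher. Over any of the 6 stages by a moderated F test, 4 of 24 keratins were called, Krt12, Krt7, Krt4 and Krt76, a share of 16.7% against 19.6% of all genes. Their stage means spanned 1.07 to 1.18 log2. Krt4, a keratin of the oesophageal and oral lining, read 21.0 and 39.0 at 10.5 dpc and 76.3 and 63.0 at 14.5 dpc, its lowest and highest stages, with 1 array under the floor. Leaving out 1 array brought the count of keratin genes called to between 1 and 7. Krt8 spanned 0.91 log2 and was short of the 1 log2 required. With each probe set tested by itself, 6 of 26 keratin probe sets were called, among them both Krt8 probe sets that do not stand for the gene. The share of all probe sets called in that test is not given here.

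The 250 bases upstream of the annotated start are shown for the hepatocyte pair Krt8 and Krt18, for Krt7, the simple keratin called lower at 16.5 dpc, and for Krt5, the basal keratin whose level rose in the rest of the embryo. All 4 genes lie on chromosome 15. Sequences are from RefSeq (GRCm38.p6), which held such a sequence for 31 of the 44 genes, at chr15:102004343-102004592 on the minus strand for Krt8, chr15:102027966-102028215 on the plus strand for Krt18, chr15:101412153-101412402 on the plus strand for Krt7 and chr15:101712906-101713155 on the minus strand for Krt5. They are written 5′ to 3′, and capitals mark matches on either strand to the letters TATAAA, known as the TATA box, to ATAAAA, a similar run that can overlap the first, to GGGCGG, known as the GC box, to CCAAT, to TGANTCA, known for the factor AP-1, or to GCCNNNGGC, known for the factor AP-2.
Krt8: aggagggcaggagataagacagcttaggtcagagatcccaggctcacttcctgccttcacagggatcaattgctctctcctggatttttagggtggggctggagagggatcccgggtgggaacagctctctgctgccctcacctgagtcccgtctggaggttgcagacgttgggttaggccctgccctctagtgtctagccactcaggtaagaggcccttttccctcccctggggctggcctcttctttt
Krt18: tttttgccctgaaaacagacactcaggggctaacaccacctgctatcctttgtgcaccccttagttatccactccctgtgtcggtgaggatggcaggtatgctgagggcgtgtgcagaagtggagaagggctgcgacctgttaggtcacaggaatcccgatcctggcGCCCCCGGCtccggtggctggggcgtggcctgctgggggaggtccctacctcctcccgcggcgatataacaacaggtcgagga
Krt7: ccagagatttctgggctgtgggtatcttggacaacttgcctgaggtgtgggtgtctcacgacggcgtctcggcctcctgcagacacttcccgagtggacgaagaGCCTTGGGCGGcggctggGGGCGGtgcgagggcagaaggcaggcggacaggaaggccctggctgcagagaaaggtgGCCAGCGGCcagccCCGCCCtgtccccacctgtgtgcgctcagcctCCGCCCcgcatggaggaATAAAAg
Krt5: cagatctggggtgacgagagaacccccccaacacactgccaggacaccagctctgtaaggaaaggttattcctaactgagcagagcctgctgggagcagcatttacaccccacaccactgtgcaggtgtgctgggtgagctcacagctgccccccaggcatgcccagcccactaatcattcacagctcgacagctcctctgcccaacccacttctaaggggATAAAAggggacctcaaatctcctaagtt
Krt8 held no match in this window, and Krt18 held 1 AP-2 match, from position -83 to -75 counted back from the start. Krt7 held 2 AP-2 matches, 4 GC boxes, of which 1 overlapped an AP-2 match, and 1 ATAAAA, from -7 to -2. Krt5 held 1 ATAAAA, from -29 to -24. Of all 32851 upstream windows of this length in the table, 13.7% held an AP-2 match, 32.7% a GC box, 17% ATAAAA, 12.4% TATAAA, 33.8% CCAAT and 6.75% an AP-1 match. A match of letters is a description of the window and not evidence of a binding site.

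Krt18, the type I chain of the hepatocyte pair, rose in adult liver. It averaged 1995 ± 104 in adult liver (SD, n = 2) and 841 ± 134 in embryonic liver (SD, n = 12). It rose by 1.26 log2 over the mean of the 6 embryonic stages (2.40-fold, SE 0.10, limma adjusted p = 6.71e-07) and by 1.24 log2 over 16.5 dpc alone (SE 0.13, limma adjusted p = 1.09e-05). Krt8 averaged 996.8 ± 130 in adult liver (SD, n = 2) and 597 ± 153 in embryonic liver (SD, n = 12), a difference of 0.78 log2 (SE 0.14, limma adjusted p = 5.27e-04) that was short of 1 log2 and so not called. When each probe set was tested by itself, the other 2 probe sets of Krt8 were called, at 1.06 and 1.05 log2 (SE 0.14 each), in a fit that called 12.4% of all probe sets higher. Krt7 and Krt19 differed by -0.35 and -0.38 log2 (SE 0.20 and 0.17), neither called. Hepatocyte markers (8 genes on the array) summed to 41166 and 42866 in adult liver against 12042 to 39682 in embryonic liver, and red cell markers (9 genes) to 623 and 718 against 2165 to 24478. Their part in the result was not tested.

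Over all keratins, 2 of 24 were called higher in adult liver, against 11.9% of all genes, and 2 lower, against 23.7%. The median keratin difference was -0.14 log2 and that of all genes -0.21, and 16 of the 24 had an unadjusted p under 0.05. Beside Krt18 the higher gene was Krt79, a keratin of the hair follicle opening and sebaceous duct, which read 190.1 and 264 in adult liver against 90.5 to 129 in embryonic liver, with no overlap, and rose by 1.04 log2 (SE 0.13, limma adjusted p = 3.96e-05). Without the adult replicate 2 that difference was 0.80 log2 and was not called. Krt71, a keratin of the inner root sheath of the hair, read 126 and 161 in adult liver against 334 to 756 in embryonic liver, with a median of 595, and fell by 1.97 log2 (SE 0.12, limma adjusted p = 1.09e-07). Krt76 read 51.9 and 28.4 in adult liver against 78.1 to 203 in embryonic liver, with a median of 168, and fell by 1.96 log2 (SE 0.19, limma adjusted p = 4.02e-06). For both genes the adult arrays lay under every embryonic one. Here too the share of all genes without overlap was not computed. With quantile normalization 4 keratins were called higher and 2 lower, and Krt8 was then called, at 1.35 log2. Against 16.5 dpc alone, 1 keratin was called higher and 5 lower, among 10.3% and 22.8% of all genes, and the lower ones included Krt10, the suprabasal partner of Krt1, with 66.1 and 50.9 in adult liver against 136 and 138 at 16.5 dpc (-1.24 log2, SE 0.22, limma adjusted p = 5.93e-04). The other 4 were Krt76, Krt71, Krt83, a hair keratin (-1.15 log2), and Krt20, a keratin of gut lining, just at the 1 log2 required.

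**Figure D3:**
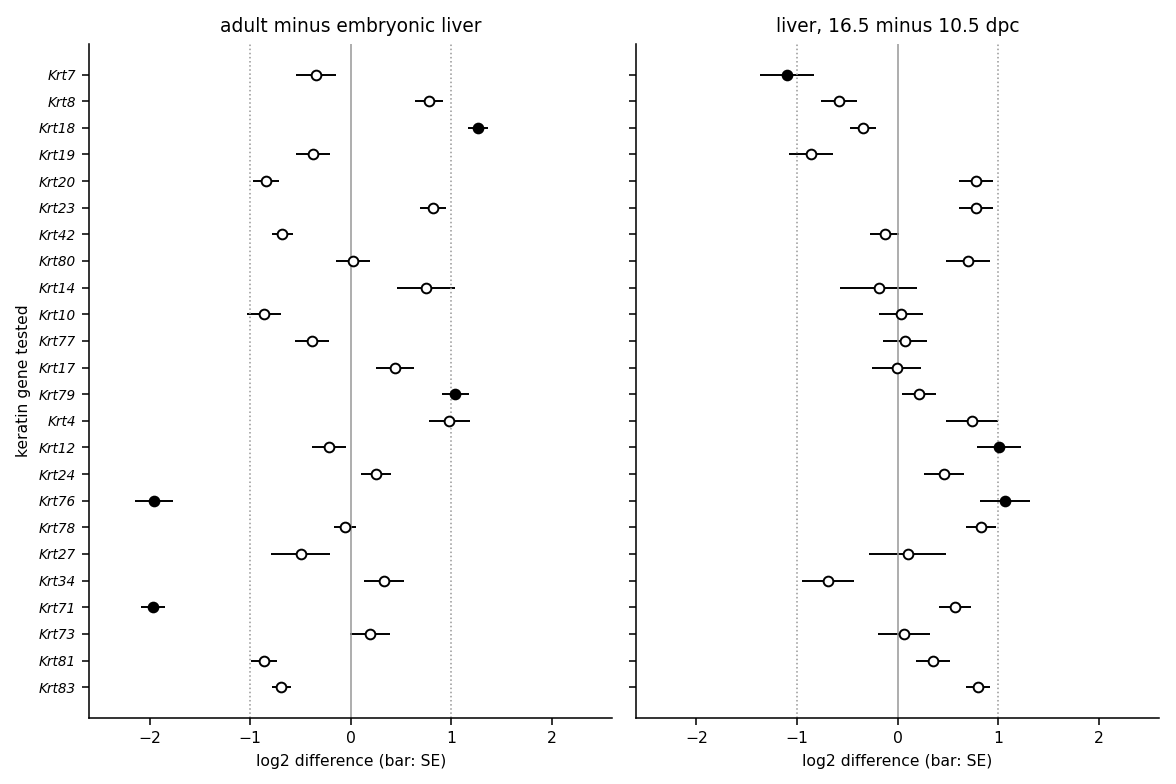
Log2 difference with its SE for the 24 keratin genes tested in liver, adult minus embryonic (left) and 16.5 minus 10.5 dpc (right), with dotted lines at a difference of 1 log2 and filled points for called genes. Krt18 and Krt79 are called to the right and Krt71 and Krt76 to the left in the adult comparison, and Krt12 and Krt76 to the right and Krt7 to the left in the embryonic one.

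Over the 4 stages of the rest of the embryo, the keratin genes called as changing with stage were all epidermal. Each was highest at 14.5 dpc, which a slope called higher up to that stage largely fixes in advance. Krt5, the type II keratin of basal epidermal cells, read 201, 255, 589.9 and 2916 from the youngest stage, 10.5 dpc, to the oldest, 14.5 dpc. Krt15, a type I keratin of the same layer, read 111, 128, 315 and 2623. Both climbed at every stage. Krt1 and Krt10, the suprabasal pair, read 119.8, 196, 174 and 2499.5, and 443, 442, 537 and 4938. Both were far higher on the last array than on the other 3, which lay close together. Krt77, another suprabasal type II keratin, read 39.3, 31.6, 27.1 and 517, and Krt2, which marks the upper layers of mature mouse skin, stayed under the floor at 2.32 to 23.7.

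In liver these genes stayed low. Krt5 lay between 42.0 and 75.1 on the 14 liver arrays, Krt77 between 52.4 and 93.6, Krt10 between 50.9 and 152, and Krt15 between -4.60 and 86.0. Krt1 did not pass 33.4 and was at or under the floor on 10 of the 14. For Krt5, Krt15, Krt1 and Krt10 every rest-of-embryo array lay above every liver array, and for Krt77 only that of 14.5 dpc did. The share of all genes without overlap was not computed, and 51.2% of all genes were called lower in liver at the shared stages. Krt1, Krt5 and Krt15 were tested there only because their rest-of-embryo arrays were bright enough, so for them the lack of overlap adds no support. Scaling of the arrays cannot be told apart from tissue in these levels.

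**Figure D4:**
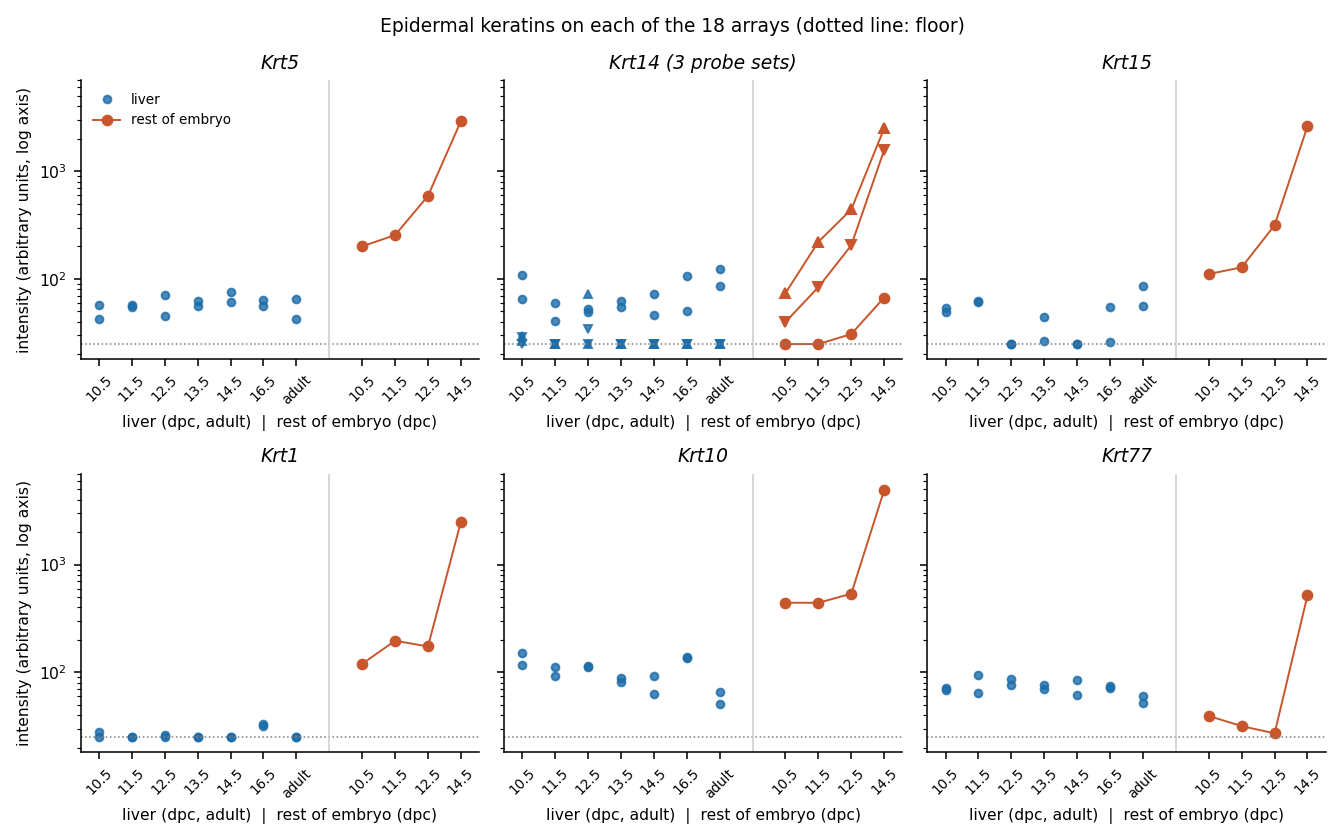
Intensity (arbitrary units, log axis, values under the floor drawn at the dotted floor line) of Krt5, Krt14, Krt15, Krt1, Krt10 and Krt77 on the 14 liver arrays (blue) left of the 4 rest-of-embryo arrays (orange, joined by stage). For Krt14 the circle is the probe set that stands for the gene and the triangles are the other 2. Krt10 reached 4938 and Krt5 2916 in the 14.5 dpc rest of the embryo, and Krt1 stayed at or under 33.4 in liver.

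The linear slope with stage in the rest of the embryo was tested over the 4 arrays, with 2 residual degrees of freedom, and 4 of 19 keratin genes tested were called higher and 0 lower. With no replicate at any stage, the SE reflects departure from a straight line, moderated across genes by limma, and not scatter between replicates. Among all genes 7.25% were called higher and 1.31% lower. The median slope of the keratins was 0.14 log2 per day, and that of all genes 0.02, and 6 of the 19 had an unadjusted p under 0.05. All 4 were epidermal. Krt15 rose by 1.20 log2 per day (SE 0.12, limma adjusted p = 0.00329), Krt1 by 1.08 (SE 0.18, limma adjusted p = 0.0168), Krt5 by 1.01 (SE 0.08, limma adjusted p = 0.00187) and Krt10 by 0.90 (SE 0.17, limma adjusted p = 0.0206). Both basal and both suprabasal genes that could be tested were thus called, while 0 of 4 simple epithelial, 0 of 5 hair and 0 of 2 periderm, appendage and stress keratins were. The slopes were 0.70 log2 per day for Krt19 (SE 0.23, limma adjusted p = 0.109), 0.30 for Krt7 (SE 0.12), 0.21 for Krt8 (SE 0.17) and 0.14 for Krt18 (SE 0.11). These 4 read highest at 14.5 dpc too, with 859, 487, 987 and 1376, after 169, 225, 604 and 1046 at 10.5 dpc, and all 4 were lower at 11.5 and 12.5 dpc than at either end. In the same tissue Krt19 read 67.6 and 124, Krt7 179 and 173, Krt8 373 and 286, and Krt18 679 and 669 at 11.5 and 12.5 dpc. Markers of other cells moved with stage in these samples too. Hepatocyte markers summed to 2090, 3861, 6931 and 12635 over the 4 stages of the rest of the embryo, with 4 of 5 tested called higher, and heart muscle markers to 17544, 18767, 18193 and 32558, with 4 of 12 called higher. Their part in the keratin slopes was not tested.

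The 14.5 dpc array carried these calls. Without it no keratin was called, and the slope up to 12.5 dpc was 0.78 log2 per day for Krt5 (limma adjusted p = 0.127), 0.75 for Krt15 (limma adjusted p = 0.285), 0.27 for Krt1 and 0.14 for Krt10. Without the 10.5 dpc array 8 keratins were called higher and 1 lower, Krt7, Krt8, Krt18 and Krt19 among the higher. Keeping all dim probe sets in the fit also left 0 called, and eBayes without an intensity trend left 2, since Krt1 and Krt10 then had a limma adjusted p of 0.053 and 0.0645. When the stages were compared as 12.5 and 14.5 against 10.5 and 11.5 dpc, 0 keratins and 0.0% of all genes were called.

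The probe set chosen for a gene mattered for Krt14 and Krt17, as it did for Krt12 above. The probe set standing for a gene is the one of highest average log2 value across the 18 arrays. Krt14, the basal partner of Krt5, read 18.8, 22.6, 30.7 and 67.1 over the 4 rest-of-embryo stages on the chosen probe set, but 73.8, 221, 442 and 2505 on another and 39.8, 83.8, 205 and 1578 on the last. The last 2 probe sets named were at or under the floor on 11 and 12 of 14 liver arrays. Tested probe set by probe set, they rose by 1.25 and 1.34 log2 per day (SE 0.06 and 0.07, limma adjusted p = 7.89e-04 and 8.41e-04), and 6 of 23 keratin probe sets were called higher, against 5.53% of all. Their slopes in liver minus the rest of the embryo differed by -1.26 and -1.36 (SE 0.19 and 0.09), and 8 of 33 keratin probe sets were called lower in that difference, against 6.88% of all. Krt17, a keratin of the periderm and of stressed epidermis, read 5.05, 24.9, 8.50 and 17.0 on the chosen probe set and 3.55, 4.46, 8.59 and 186 on the other, which was not tested because 1 array alone exceeded 78.0. In embryonic liver the chosen probe set of Krt17 ran from 76.3 to 153 (median 101) and the other from 13.5 to 29.0 (median 20.2). The same limit kept out Krt77, Krt4 (49.4, 76.0, 41.5 and 659.9, and 13.9, 11.6, 3.68 and 440.0 on its 2 probe sets) and Krt13, a keratin of mucosal lining (21.4, 32.9, 42.7 and 229), all highest at 14.5 dpc. A probe set shared by Krt14 and Krt17, and those of Krt6a, Krt6b, Krt33a and Krt33b, were outside the rule for members and were not counted.

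Whether keratins changed differently with stage in liver and in the rest of the embryo was tested as an interaction between tissue and age over the 12 arrays of the 4 shared stages, where a constant difference in scaling cancels on the log scale for values above the floor. Of 29 keratins tested, 6 had a lower slope in liver, against 8.95% of all genes, and 0 had a higher one, against 5.09%. The median difference was -0.09 log2 per day for keratins and -0.03 for all genes, and 7 of the 29 had an unadjusted p under 0.05. Krt15 had a slope of -0.32 log2 per day in liver and 1.20 in the rest of the embryo, a difference of -1.52 (SE 0.17, limma adjusted p = 5.89e-04). Krt1 had -0.02 and 1.08, a difference of -1.10 (SE 0.18, limma adjusted p = 0.00276). Krt10 had -0.18 and 0.90, a difference of -1.08 (SE 0.18, limma adjusted p = 0.00283). The same pattern held for Krt77, at -0.96 (SE 0.26, limma adjusted p = 0.0290), and for Krt5, at -0.90 (SE 0.11, limma adjusted p = 8.80e-04). Krt7 was the 1 simple epithelial keratin called, with -0.25 in liver and 0.30 in the rest of the embryo (difference -0.55, SE 0.16, limma adjusted p = 0.0345). The differences were -0.66 for Krt19 (SE 0.26), -0.19 for Krt8 (SE 0.21) and -0.18 for Krt18 (SE 0.13), none called. All 6 calls were lost without the 14.5 dpc rest-of-embryo array, where Krt77 came to 0.27. Krt1, Krt15 and Krt5 entered this fit through the rest of the embryo alone, with none of the 8 liver arrays above 78.0. In liver, Krt1 was at or under the floor on 6 of those 8 arrays and Krt15 on 4, so that their liver slopes rest largely on floored values.

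**Figure D5:**
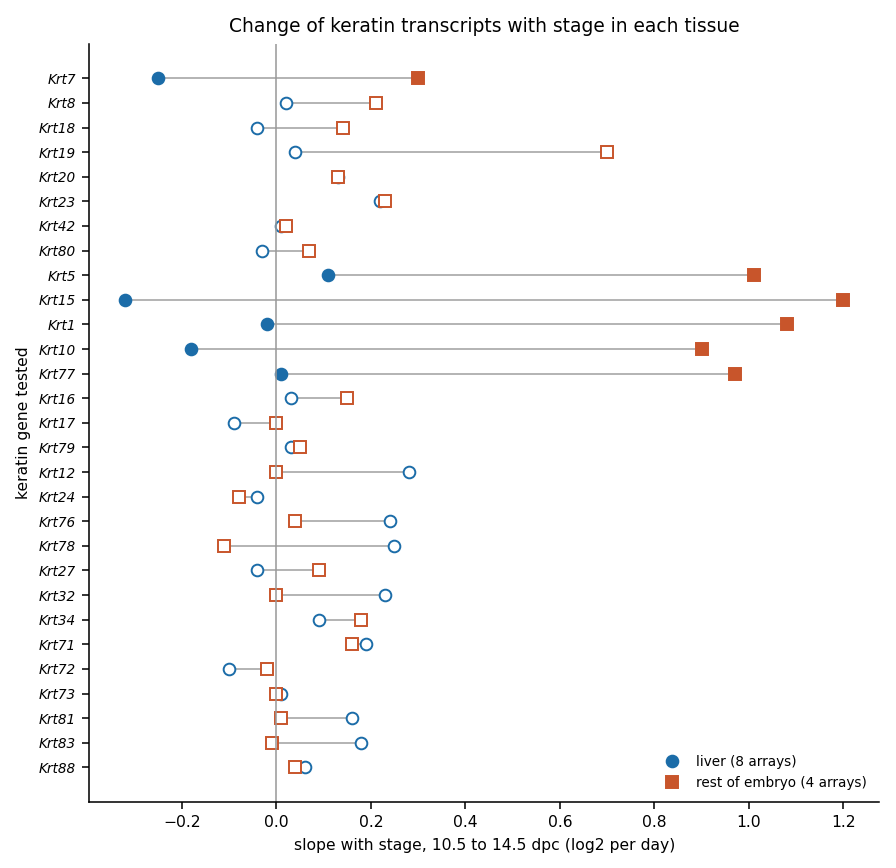
Slope with stage from 10.5 to 14.5 dpc (log2 per day) in liver (circles) and in the rest of the embryo (squares) for the 29 keratin genes tested, filled where the 2 slopes were called different. Krt15, Krt1, Krt5, Krt77 and Krt10 have rest-of-embryo slopes of 0.90 to 1.20 and liver slopes near or below 0.11, and most other keratins have similar slopes in both tissues.

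Levels in liver and in the rest of the embryo at the same stages crossed the 2 forms of array, and the median gene stood at -1.04 log2 in liver. Against that background 11 of 29 keratins were called lower in liver, with 51.2% of all genes, and 10 higher, with 14% of all genes. The median keratin difference was -0.33 log2, and 25 of the 29 had an unadjusted p under 0.05. These counts are a description only, since many members entered the fit through the tissue where they were high. Of the 29, 8 exceeded 78.0 on liver arrays of this fit alone, and all 8 were called higher in liver (Krt12, Krt17, Krt20, Krt23, Krt27, Krt71, Krt73 and Krt76). On rest-of-embryo arrays alone 6 did so, of which 5 were called lower in liver (Krt1, Krt5, Krt15, Krt16 and Krt72) and Krt88 was not called. Of the 15 above it in both tissues, 2 were called higher and 6 lower. Krt8 and Krt18 differed by 0.22 (SE 0.18) and -0.11 log2 (SE 0.12), neither called, while Krt7 was lower in liver, at -1.24 log2 (SE 0.30, limma adjusted p = 0.00255), and so was Krt19, at -1.11 (SE 0.37, limma adjusted p = 0.0164). Neither Krt7 nor Krt19 was called without the 14.5 dpc rest-of-embryo array, at -0.76 and -0.48 log2, or with median centring, at -0.84 and -0.71 log2. Median centring of the arrays left the median gene at -0.64 log2 and gave 10 keratins higher and 6 lower, and quantile normalization left it at -0.11 and gave 13 higher and 7 lower. Under quantile normalization Krt8 and Krt18 were called higher in liver, at 1.32 and 1.09 log2, and Krt7 and Krt19 were no longer called, so the direction for Krt18 depends on the scaling. Among epidermal keratins Krt1, Krt5, Krt15 and Krt10 were lower in liver, at -3.65, -3.26, -3.14 and -3.03 log2 (SE 0.56, 0.45, 0.73 and 0.56), in every scaling tried. Without the 14.5 dpc rest-of-embryo array these values were -2.64, -2.54, -1.94 and -2.03 log2. Of these genes, Krt1, Krt5 and Krt15 had entered through the rest of the embryo alone. Krt1 and Krt15 were at the floor on 6 and 4 of the 8 liver arrays, so the sizes of their differences depend on the floor. Krt42, a type I keratin, read 248 to 515 on liver arrays against 2039 to 3079 in the rest of the embryo, a difference of -2.50 log2 (SE 0.10, limma adjusted p = 5.63e-09), with a second probe set at 22.2 to 65.0 in liver against 24.0 to 34.5 in the rest of the embryo.

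Several hair and mucosal keratins read high on liver arrays and low in the rest of the embryo. Krt27, a type I keratin of the inner root sheath of the hair, read 1098 to 3300 on the 14 liver arrays, with a median of 1522, against 47.3, 55.8, 23.3 and 69.0 on the rest-of-embryo arrays by age, a difference of 5.16 log2 (SE 0.25, limma adjusted p = 1.71e-08). Krt71, a type II keratin of the same sheath, read 126 to 756 on liver arrays against 27.1 to 43.1 in the rest of the embryo (3.98 log2, SE 0.11). Krt78, a type II keratin, and Krt24, a type I keratin, read 289 to 694 and 251 to 502 on liver arrays against 48.7 to 143 and 48.7 to 95.0 in the rest of the embryo (2.73 and 2.33 log2, SE 0.31 and 0.16). Neither tissue's arrays overlapped the other's for any of these 4, of which Krt27 and Krt71 had entered the fit through liver arrays alone. Krt73, also of the inner root sheath, read 74.7 to 150.3 in liver and was under the floor on all 4 rest-of-embryo arrays. Its mean in liver stood 2.07 log2 above the floor (SE 0.14), and 0.92 log2 above a floor at the 40th percentile, where it was not called. The remaining genes called higher were Krt17, Krt12, Krt23, Krt20 and Krt76 (1.18 to 2.02 log2), of which Krt12 and Krt17 were at the floor on 3 and Krt23 on 2 of the 4 rest-of-embryo arrays. The other probe set of Krt17 did not follow, with 13.5 to 34.2 in liver and 3.55 to 186 in the rest of the embryo. That of Krt12 was near or under the floor in both, at 12.6 to 32.1 and 5.38 to 20.6. Over the 12 embryonic liver arrays Krt20 ran from 89.8 to 185 (median 160), against 56.2, 46.9, 54.2 and 75 in the rest of the embryo, and Krt23 from 66.1 to 136 (median 98.4), against 27.9, 18.2, 14.2 and 50.8. Krt76 read 59.7, 53.7, 59.5 and 64.7 and Krt12 6.15, 25.0, 1.47 and 15 in the rest of the embryo. None of these 4 overlapped between embryonic liver and the rest of the embryo. All 4 had entered the fit through liver arrays alone, so the lack of overlap adds no support. The share of all genes without overlap was not computed. Genes called lower also included Krt72, Krt32, Krt81 and Krt16 (-1.80 to -1.24 log2), and Krt32 was at the floor on 5 of the 8 liver arrays. Krt72 ran from 17.3 to 76.5 in embryonic liver (median 37.1), against 174, 108, 122 and 147 in the rest of the embryo, and Krt81 from 113 to 196 (median 162), against 363, 355, 399.9 and 365. Krt32 ran from -51.1 to 80.9 in embryonic liver (median -1.40), against 81.3, 83.4, 93.1 and 81.3 in the rest of the embryo, so that its highest liver array came close to them. Other genes of stratified epithelium were called in both directions. In liver against the rest of the embryo, 5 of 13 cornified envelope genes were called higher and 3 lower, 3 of 9 epidermal transcription factors higher and 2 lower, 1 of 16 desmosome and hemidesmosome genes higher and 6 lower, and 1 of 16 junction and splicing genes higher and 5 lower, beside the 14% and 51.2% of all genes. Among those called higher, Ehf, a transcription factor of epithelia, read 740 to 1797 on liver arrays against 3.48 to 17.2 in the rest of the embryo (5.46 log2, SE 0.18), Klf5 was 3.93 log2 higher (SE 0.22), and the cornified envelope genes Sprr1b and Lce1a1 were 4.86 and 3.48 log2 higher (SE 0.33 and 0.16). Whether the form of the arrays or the tissue sets these levels cannot be told apart.

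Genes that work with keratins were read in fixed lists. In the rest of the embryo, 3 of 15 desmosome and hemidesmosome genes tested, which anchor keratin filaments at the cell surface, had a slope called higher and none lower, among 7.25% and 1.31% of all genes, with a list median of 0.35 log2 per day against 0.02 for all genes. Pkp1, a desmosomal plaque protein of stratified epithelium, read 49.3, 46.0, 98.6 and 1706 over the 4 stages (1.35 log2 per day, SE 0.20, limma adjusted p = 0.0112), and Perp, a desmosomal membrane protein, 265, 155, 281 and 2829 (0.95 log2 per day, SE 0.21, limma adjusted p = 0.0387). Among cornified envelope genes, which build the outer barrier, 1 of 8 was called higher, Sbsn, with 79.0, 111, 199 and 1289 (1.03 log2 per day, SE 0.10, limma adjusted p = 0.00316). Of 6 epidermal transcription factors 1 was called higher, Klf4, a factor of barrier formation, with 148, 312, 467 and 1085 (0.69 log2 per day, SE 0.07, limma adjusted p = 0.00302). Epithelial junction and splicing genes had 1 of 13 called, Spint2, a protease inhibitor (0.28 log2 per day, SE 0.07). All 5 named genes were highest at 14.5 dpc, which a slope called higher over stages that end there largely fixes in advance. Of the transcription factor list, Ehf, Klf5 and Trp63 stayed under the floor at all 4 stages. Krtdap, a secreted protein of suprabasal keratinocytes chosen after its values were seen, read 8.44, 18.5, 28.3 and 2666 and was too dim at the first 3 stages to be tested.

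Liver minus rest of the embryo, the slopes of 4 of 16 desmosome, 3 of 13 cornified envelope, 2 of 9 epidermal transcription factor and 3 of 16 junction and splicing genes were called lower, and none higher, among 8.95% and 5.09% of all genes. Lor, the main protein of the cornified envelope, had a difference of -1.34 log2 per day (SE 0.29, limma adjusted p = 0.0116) and Sbsn one of -1.27 (SE 0.14, limma adjusted p = 5.00e-04). Sbsn had entered this fit through the rest of the embryo alone, with no liver array of the shared stages above 78.0. Its 14.5 dpc liver arrays, at 14.7 and 15.6, were both under the floor, so its liver slope rests partly on floored values. Lor read 31.9, 5.39, 29.9 and 1297 over the 4 rest-of-embryo stages, against 251 and 296 in 10.5-dpc livers and 321 and 352 in 14.5-dpc livers. Partner genes were not retested without the 14.5 dpc rest-of-embryo array, here or for the slopes above, and all 6 keratin calls in this test were lost without it. In adult against embryonic liver, 6 of 17 desmosome and hemidesmosome genes were called higher and 2 lower, among 11.9% and 23.7% of all genes, with a list median of 0.52 log2 against -0.21 for all genes, while 0 of 8 epidermal transcription factors were called. The lower ones were Col17a1, a hemidesmosome collagen, at -2.39 log2 (SE 0.13), and Itga6, a hemidesmosome integrin chain, at -2.38 log2 (SE 0.28). Of 13 other intermediate filament genes 0 were called higher and 5 lower in adult liver, the largest change being in Vim, the filament of mesenchymal cells, which read 382 and 370 in adult liver against 1169 to 4215 in embryonic liver (-2.30 log2, SE 0.13, limma adjusted p = 4.67e-08). Biliary markers (8 genes on the array) summed to 1254 and 1588 in adult liver and to 1100 to 1850 in embryonic liver, and 1 of 7 tested was called higher in adult liver, Onecut1, at 2.66 log2 (SE 0.35).

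Krt25, Krt26, Krt28, Krt31, Krt35, Krt36, Krt82, Krt84 and Krt86, all of the hair, and Krt2, Krt75 and Krt222 did not exceed 78.5 on any of the 18 arrays. Krt34, Krt81 and Krt83, also of the hair, and Krt80 of the other simple-type group were read above the floor on all arrays, Krt83 at 305 to 682 in liver against 331 to 549 in the rest of the embryo. Krt16, a stress keratin of the epidermis, read -3.28 to 123 in liver against 70.1 to 126 in the rest of the embryo. Krt88, in no group, read 34.9 to 72.5 in liver against 162, 38.5, 133 and 113 in the rest of the embryo, a difference of -0.97 log2 that was not called.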

How the data were processed

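Total RNA of 18 samples was measured on Affymetrix mouse genome arrays. The authors deposited 1 intensity per probe set and array, whose background correction and scaling are not given in the sources used here. From them, log2 values were computed after raising intensities to 24.8, the 20th percentile of all values, so the log2 scale is not that of the deposited values and understates changes of dim genes. Probe sets were named from the platform annotation: 34945 have 1 symbol, 932 several and 9160 none, and 64 are controls. A gene was represented by its probe set of highest mean log2 value and tested if above 78.0 on at least 2 arrays of the fit. Models were fitted with limma 3.58.1 in R 4.3.3 (lmFit, eBayes with trend, two-sided), with p-values adjusted by Benjamini-Hochberg over all genes tested, and checked on simulated data. A call needed an adjusted p under 0.05 and a size of 1 log2 (slopes, 0.25 log2 per day). The liver fit used 14 arrays in 7 groups (7 residual degrees of freedom), the comparison of tissues the 12 arrays of the shared stages with stage as a factor. Samples were grouped by source name, since some titles and ages contradict it. By the rule for named genes, values are given for Krt1, Krt5, Krt7, Krt8, Krt10, Krt14, Krt15, Krt17, Krt18 and Krt19 and for every keratin called, and from each partner list for up to 2 called members of largest change. Members and lists were chosen with earlier results of these data known. Replicate numbers did not pair the samples: over 21 pairs the correlation of deviations ran from -0.35 to 0.25, with a median of 0.02. The number of arrays limits the precision. Alternatives covered the floor, the filter, scaling, the probe set rule, the trend, a replicate block, the stages compared and each array left out.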

Additional observations from a re-analysis of the deposited data

Results flagged for a closer look

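For 6 keratins the slope with stage differed between liver and the rest of the embryo by the interaction test over 12 arrays. The differences, liver minus rest of the embryo, were -1.52 log2 per day for Krt15, -1.10 for Krt1, -1.08 for Krt10, -0.96 for Krt77, -0.90 for Krt5 and -0.55 for Krt7. Each stage of the rest of the embryo is 1 array, and without that of 14.5 dpc the values were -1.08 for Krt15, -0.28 for Krt1, -0.32 for Krt10, 0.27 for Krt77, -0.67 for Krt5 and -0.06 for Krt7, none of them called.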

How the results depend on the processing

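Of 248 counts recomputed under an alternative, 201 stayed within 1.5 times the reported count. Of 1237 single-gene values 1120 kept their call or lack of one, 102 lost the call and 13 gained it. A value called in neither fit was counted as kept even where its sign changed. Krt8, for example, came to 0.34 log2 for 16.5 against 11.5 dpc, after -0.58 against 10.5 dpc. With a call in at least 1 of the fits, 2 values changed sign. These were Krt18 in liver against the rest of the embryo under quantile normalization (1.09 log2) and Krt77 in the difference of slopes without the 14.5 dpc rest-of-embryo array (0.27 log2 per day). The cause was not tested. For 16.5 against 10.5 dpc, the keratins called higher numbered 1 with the floor at the 40th percentile, 0 with median centring, 0 with quantile normalization, 1 with the mean of a gene's probe sets and 0 to 2 with 1 array left out, and those called lower 0 to 2. For 16.5 against 11.5 dpc, 1 was called higher and 0 lower. Over the 6 stages the count was 2 with the floor at the 40th percentile, 1 with no filter, 2 with median centring, 2 with the mean of probe sets, 1 without the 10.5 and 12.5 dpc arrays and 1 to 7 with 1 array left out. With the replicate number as a block this count was 1 and no other count moved by over 1.5 times. In adult liver, 4 were called higher with quantile normalization, 4 with every probe set on its own, 1 against 16.5 dpc, where 5 were lower, 1 to 3 with 1 array left out (1 without adult replicate 2), and 2 to 4 lower (4 without adult replicate 1). Without the 10.5 and 12.5 dpc arrays, an alternative chosen after seeing the data, 2 were higher and 3 lower. In liver against the rest of the embryo, 6 were higher with the floor at the 40th percentile, and 6 and 7 lower with median centring and quantile normalization. In the rest of the embryo the slope count was 0 with no filter, 2 without the trend, 0 for 12.5 and 14.5 against 10.5 and 11.5 dpc, and 0 to 8 higher and 0 to 1 lower with 1 array left out. Krt77 in the difference of slopes ran from -1.45 to 0.27. The difference of slopes gave 0 to 2 higher and 0 to 7 lower with 1 array left out. At the floor on all, liver and rest-of-embryo arrays lay 0, 0 and 0 probe sets at the 10th percentile, 9, 15 and 18 at the 40th, and 2 on all arrays with a floor per kind of array. Signal near the floor limits all dim keratins.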
